A study of Drosophila melanogaster with 3 samples.

Results

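The regions described here are the reproducible ChIP-seq peaks of tagged CG10565 protein at one-directional protein-coding promoters in Drosophila melanogaster embryos. They are 373 of the 1143 peaks on the optimal list that the authors derived with the irreproducible discovery rate (IDR), a measure of how alike peaks rank across replicates. A peak was a member when its summit, the position of highest signal, lay within 500 bp of the annotated transcription start site (TSS) of a protein-coding gene. Summits within 500 bp of a TSS of each of 2 genes that face away from each other were left out as divergent. Such a summit did not have to lie between the 2 TSSs. Within the IDR list the rule used position and strand alone, and no signal value. The IDR list itself held strong calls. The lowest member signal was 106, and the strongest call at such promoters that overlapped no IDR peak ranked 1144th in the pool. The study had 1 group, which was 3 biological replicates of embryos of mixed sex, 0 to 24 hours old, numbered 1, 2 and 4. All carried a transgene for CG10565 with eGFP at its C-terminus, and an anti-GFP antibody pulled down chromatin fragments of 200 to 800 bp. These are whole embryos, so the peaks are a sum over all tissues and stages in that interval. The group holds no untagged embryos, and the control libraries behind the lists were not analysed here.

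CG10565 is the fly relative of the human co-chaperone DNAJC2, a protein with a J domain that binds ribosomes and has also been found on chromatin in mammals. At a one-directional promoter RNA polymerase II transcribes annotated coding sequence in a single direction, and the DNA just upstream of the TSS is where sequence-specific factors bind. In flies such promoters include those of many developmental genes, which often hold sites for the GAGA factor, the product of Trl. Ribosomal protein genes form a class apart, with a pyrimidine-rich start site called the TCT initiator.

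The DNA under the strongest summits was rich in A and T. The 100 bases centred on the summit are shown for 6 of the 10 strongest members, along the strand of the nearest gene in dm6 and 5′ to 3′, because low GC content was general among the peaks. Capitals mark runs of at least 6 A or T bases. Between 65 and 75 of the 100 bases were A or T in these 6 stretches.
Ugalt (chrX:2703830-2703929, minus strand): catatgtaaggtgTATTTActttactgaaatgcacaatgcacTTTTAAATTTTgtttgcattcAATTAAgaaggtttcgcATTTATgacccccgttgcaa
CG14100 (chr3L:19590573-19590672, minus strand): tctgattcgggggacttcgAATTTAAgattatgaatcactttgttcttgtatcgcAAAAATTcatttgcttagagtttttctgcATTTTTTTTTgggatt
ph-p (chrX:2137285-2137384, minus strand): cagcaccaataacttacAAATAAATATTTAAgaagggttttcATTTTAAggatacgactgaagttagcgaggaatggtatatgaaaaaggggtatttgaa
CG13921 (chr3L:1746732-1746831, plus strand): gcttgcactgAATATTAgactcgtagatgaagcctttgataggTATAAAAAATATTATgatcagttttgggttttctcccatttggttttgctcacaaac
CG31145 (chr3R:23669789-23669888, minus strand): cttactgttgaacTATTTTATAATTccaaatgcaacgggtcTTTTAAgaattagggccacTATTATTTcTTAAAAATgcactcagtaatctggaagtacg
CG18549 (chr3R:12449129-12449228, plus strand): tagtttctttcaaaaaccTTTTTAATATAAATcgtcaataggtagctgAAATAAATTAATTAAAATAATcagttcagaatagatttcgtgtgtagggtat

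Many of the start sites also had GAGA elements, written here as GAGAG or its complement CTCTC. The 150 bases before the TSS are shown for 4 strong members with at least 3 matches, in dm6 and 5′ to 3′ along the gene, with each match in capitals. The match counts, overlapping matches included, were 4 for larp, 7 for Fhos, 4 for CG13631 and 4 for E23. In all 4 genes the summit lay farther from the TSS than the stretch shown, at 316, 291, 343 and 234 bp upstream in that order.
larp (chr3R:28326265-28326414, minus strand): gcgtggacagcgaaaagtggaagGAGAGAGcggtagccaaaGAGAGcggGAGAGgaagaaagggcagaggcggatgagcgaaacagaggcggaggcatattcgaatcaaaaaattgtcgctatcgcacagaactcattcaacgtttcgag
Fhos (chr3L:8766292-8766441, plus strand): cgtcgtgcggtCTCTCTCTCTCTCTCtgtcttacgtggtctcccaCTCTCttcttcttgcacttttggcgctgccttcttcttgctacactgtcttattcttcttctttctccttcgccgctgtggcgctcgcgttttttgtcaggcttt
CG13631 (chr3R:24769201-24769350, plus strand): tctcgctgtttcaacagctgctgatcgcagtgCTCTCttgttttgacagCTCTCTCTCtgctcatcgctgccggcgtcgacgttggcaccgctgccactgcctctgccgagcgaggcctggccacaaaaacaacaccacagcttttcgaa
E23 (chr2L:3354830-3354979, minus strand): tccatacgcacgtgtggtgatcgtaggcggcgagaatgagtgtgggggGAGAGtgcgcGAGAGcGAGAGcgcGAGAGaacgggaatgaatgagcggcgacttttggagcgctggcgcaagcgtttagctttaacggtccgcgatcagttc

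The members' signals, which are the authors' values from their peak caller, ranged from 106 to 1018 with a median of 155. They were compared with the 223 divergent IDR peaks, whose median was 149, and with 4573 weaker pooled calls at one-directional promoters, whose median was 33.4. The weaker calls met the same rule of position and overlapped no IDR peak, so a difference from them is also one between strong and weak calls. One-directional promoters held 4946 tested calls of the pooled list, of which 7.54% were IDR peaks. The share was 16.2% at divergent promoters, 2.32% away from coding TSSs and 3.83% over all tested calls. The 373 members lay within 500 bp of a TSS of 370 coding genes, which are 9.24% of the 4005 coding genes with a tested call at a one-directional promoter. The arms 2L, 2R, 3L, 3R and X held 75, 78, 71, 72 and 74 members, chromosome 4 held those at gw, Sox102F and RpS3A, and the Y held none.

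The strongest member lay at Ugalt, which encodes the transporter of UDP-galactose into the Golgi. Its summit at position 2703879 of the X was 27 bp upstream of the TSS, and its signal was 1018 in the pool, 302 in replicate 1, 516 in replicate 2 and 211 in replicate 4. It ranked 2nd, 1st and 8th in replicates 1, 2 and 4. The next member, at CG14100 on 3L, had a signal of 976 in the pool and 248, 478 and 260 in replicates 1, 2 and 4, with the summit 98 bp upstream. Signals of different lists are on scales of their own, so ranks are the comparable quantity, and both peaks were among the 8 strongest calls of every replicate. The third lay at px, a gene known from wing vein patterning, with a signal of 929 and ranks of 1, 3 and 6. It was 207 bp upstream of an internal TSS, inside the gene's intron.

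ph-p, which encodes a subunit of the Polycomb repressive complex PRC1, had 2 members. The stronger had a signal of 794 and lay 479 bp upstream of the second of 3 annotated TSSs, in an intron, with ranks of 7, 5 and 12. The other had a signal of 388 and lay 430 bp downstream of the first TSS, in an exon, with ranks of 45, 203 and 61. PNPase, a mitochondrial RNA-degrading enzyme, had the strongest member downstream of a TSS. Its signal was 632 and its offset 69 bp in the pool, and 69, 71 and 68 bp in replicates 1, 2 and 4. CG13921, CG31145, CG1888, mRpL41 and CG18549 followed with signals between 518 and 582, and mRpL41 encodes a protein of the mitochondrial ribosome. Their ranks lay between 7 and 49 in every replicate.

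The rest of the 25 strongest members, with signals between 319 and 415, lay at genes of many functions. Rtnl1 encodes a reticulon that shapes the endoplasmic reticulum, gish a casein kinase 1, and aay a phosphoserine phosphatase. RluA-1 encodes a pseudouridine synthase, larp an RNA-binding protein, Sesn a stress-induced sestrin and Fhos a formin. Sox14 and Atf3 encode transcription factors, and Drat, CG1142, CG8788, CG7841 and CG1635 complete the list. Ranks spread most at RluA-1, with 22, 342 and 24 in replicates 1, 2 and 4, and at larp, with 50, 64 and 670. gish and CG7841 had no overlapping call in replicate 2, and all other replicate ranks of the 25 were smaller than 1143.

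**Figure D1:**
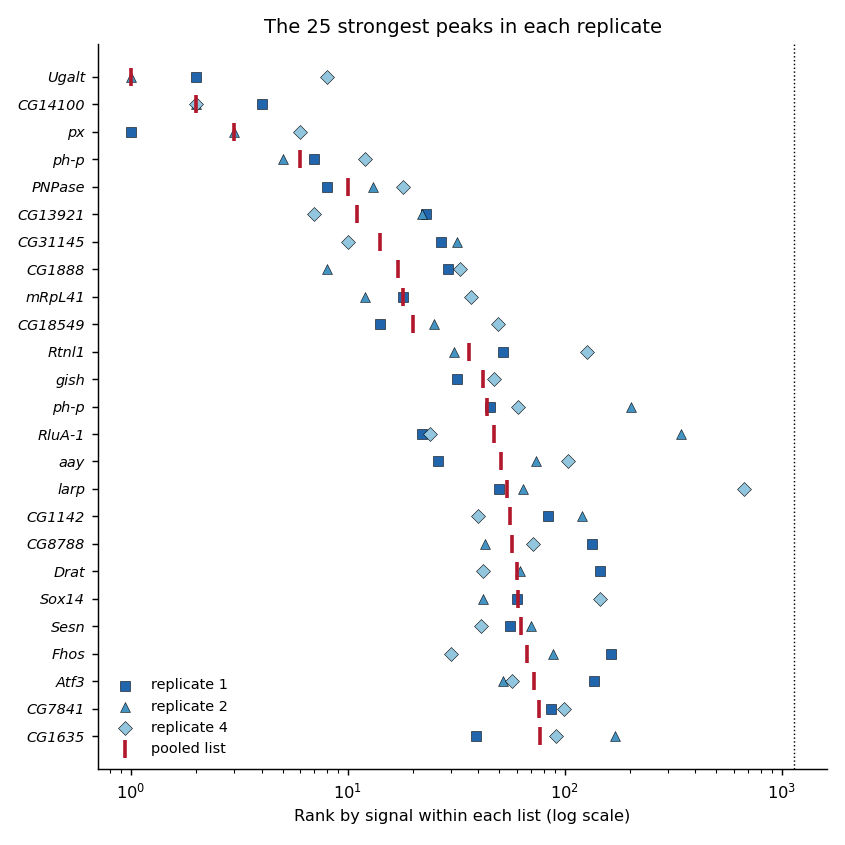
Ranks by signal of the 25 strongest one-directional IDR peaks in the 3 replicate lists and the pooled list, on a log axis, with the peaks named by their nearest gene and ordered by pooled signal. The dotted line marks rank 1143, and every plotted point lies left of it; gish and CG7841 have no point for replicate 2.

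Most members were found in several replicates. Of the 373 summits, 154 (41.3%) lay inside one of the strongest 1143 calls of all 3 replicates, 144 in 2 and 72 in 1. The 3 others, at sick, Pits and CG10898, lay in none, and are named after their values were seen. When any call counted, 336 summits lay inside a call of all 3 replicates. Divergent IDR peaks had the same 3-replicate support, 92 of 223 or 41.3%, and the odds ratio of members to divergent peaks was 1.00, with a 95% exact interval of 0.705 to 1.42 (Fisher's exact test, two-sided, adjusted p = 1). The largest changes of rank were at Eno, which encodes the glycolytic enzyme enolase, with ranks of 460, 29740 and 253, at eIF6, with 286, 51 and 8186, and at Tina-1, with 20, 1668 and 51. eIF6 is a ribosome biogenesis and translation factor.

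The summits lay upstream of the start site. In 339 of 373 members (90.9%) the summit was upstream of the nearest coding TSS, against 2761 of 4573 weaker calls (60.4%). The odds ratio was 6.54 (95% exact interval 4.56 to 9.65, Fisher's exact test, two-sided, p = 1.46e-36 after Benjamini-Hochberg adjustment over 11 share tests). Over the alternatives it ranged from 3.70 with only the most upstream TSS of each gene to 8.84 without replicate 2. With TSSs up to 1000 bp away it was 3.96. To leave out a replicate, only IDR peaks with a strong call in both other replicates were kept. The pooled summits still held the replicate left out, and the weaker calls stayed unfiltered. Such values therefore reflect a stricter filter on IDR peaks. Where the nearest TSS is internal, an upstream summit can lie inside its gene. The median offset of the members was -186 bp, with quartiles of -280 and -121 bp, against -83 bp in weaker calls. Between 100 and 300 bp upstream lay 219 members (58.7%) and 1286 weaker calls (28.1%). Divergent IDR peaks were upstream in 192 of 223 cases (86.1%). A summit between the 2 TSSs of a divergent pair is upstream of both. The definition itself therefore favours upstream summits there, and no test is read from the divergent share. The threshold for an adjusted p-value was 0.05 throughout.

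**Figure D2:**
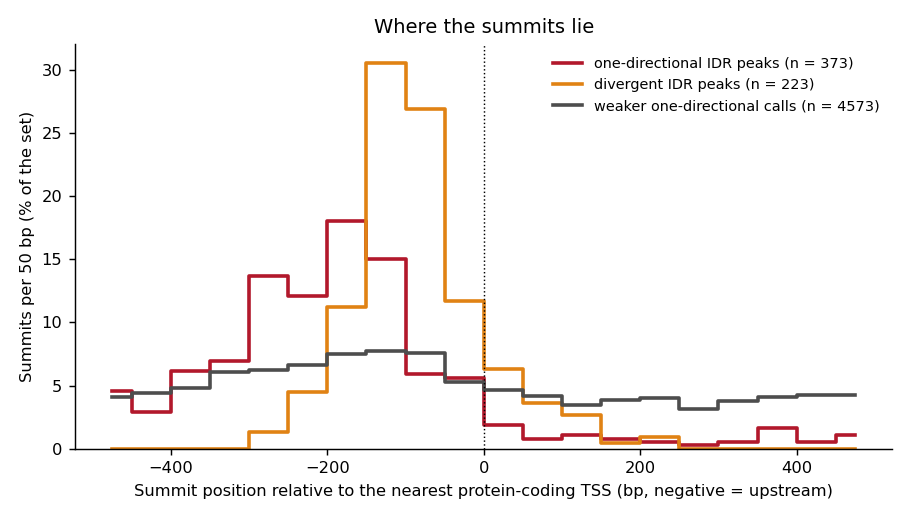
Summit position relative to the nearest protein-coding TSS in 50 bp steps, as percent of each set, for the 373 one-directional IDR peaks, the 223 divergent IDR peaks and the 4573 weaker one-directional calls. Members are most frequent between 150 and 200 bp upstream (18%), divergent peaks between 100 and 150 bp upstream (30.5%), and weaker calls reach at most 7.72% in any step.

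The upstream position was found in each replicate. Calls of the replicate lists that overlapped a member had median offsets of -181 bp in replicate 1 (372 members), -185 bp in replicate 2 (347) and -202 bp in replicate 4 (369), and 90.9%, 90.5% and 92.7% of them were upstream. Of the 342 members with a call in all 3, 306 had all 3 summits upstream and 24 had all 3 downstream. Such calls had to overlap a member of the pool made from these replicates, so their offsets were tied to the pooled ones. In the replicate lists alone, the strongest 1143 calls held 394, 344 and 386 at one-directional promoters in replicates 1, 2 and 4, a mean of 375 ± 26.9 (SD, n = 3). Their upstream share was 88.6%, 86.3% and 90.9%, against 57.4%, 47.4% and 61.1% of the replicate's other calls at such promoters. The share was higher among the strongest calls in all 3 replicates and the ranges did not overlap, with means of 88.6% ± 2.30 and 55.3% ± 7.09 (SD, n = 3). The share declined with rank: in the pooled list it was 92.8% for ranks 1 to 250 and 51.7% for the weakest 10000 calls. In replicate 2 it reached 41.6% in the weakest 10000.

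**Figure D3:**
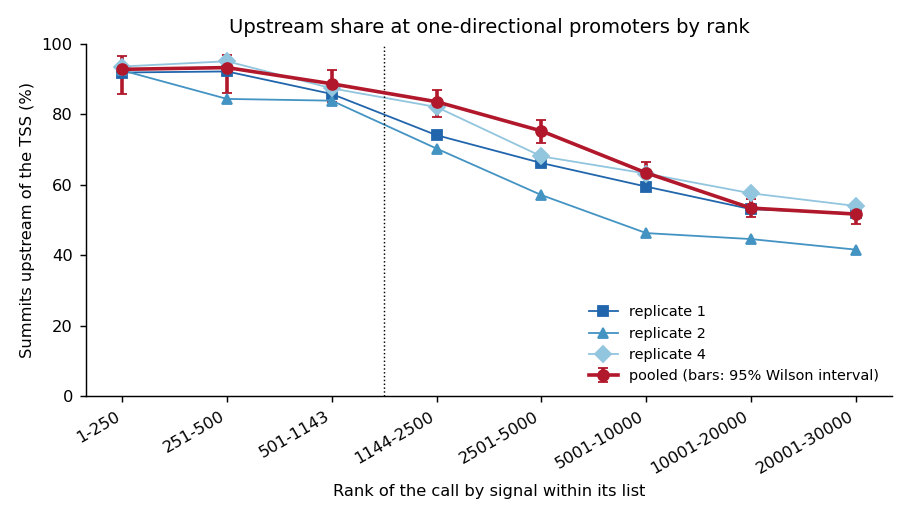
Percent of summits upstream of the nearest coding TSS among calls at one-directional promoters, by rank of signal within the pooled list (bars are 95% Wilson intervals) and within each replicate list. The dotted line marks the length of the IDR list; the pooled share is 92.8% in the first step and 51.7% in the last.

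Members seldom lay on the start site itself. A summit within 100 bp of the TSS was found in 53 of 373 members (14.2%), 108 of 223 divergent peaks (48.4%) and 997 of 4573 weaker calls (21.8%). The odds ratio against weaker calls was 0.594 (0.432 to 0.804, Fisher's exact test, adjusted p = 0.000725), and it was 0.364 without replicate 2. In the same exact test this difference no longer passed when TSSs up to 1000 bp away were used (adjusted p = 0.0857) or only the most upstream TSS of each gene (adjusted p = 0.167). From 0 to 100 bp upstream lay 11.5% of members and 13% of weaker calls. From 1 to 100 bp downstream lay 2.68% and 8.77%. The difference was thus mostly downstream of the TSS and is not separate from that in the upstream share. In a divergent pair both TSSs lie within 500 bp of the summit, so the definition itself bounds the distance there, and no test is read from the divergent share. By position, IDR peaks made up 15% of all calls between 100 and 200 bp upstream and 14% between 200 and 300 bp upstream, but 1.68% of those over 100 bp downstream. At the edge of the rule the nearest members inside were CG4496 (496 bp upstream), CG42671 (495 bp) and CG42808 (491 bp), with signals of 198, 135 and 112. The nearest IDR peaks outside were stv (502 bp), Cyp310a1 (514 bp) and SREBP (515 bp), with signals of 132, 153 and 151. The weakest member, at CG43116, had a signal of 106 and lay 376 bp downstream, and the strongest call off the IDR list, rank 1144 at CG5335, also had 106 and lay on the TSS.

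The genes at members were long and had several start sites. In 239 of 373 members (64.1%) the nearest gene had more than 1 annotated TSS position, against 50.9% of weaker calls. The odds ratio was 1.72 (1.38 to 2.16, Fisher's exact test, adjusted p = 2.35e-06). The several-TSS share was 43.5% in divergent peaks. The nearest TSS was not the most upstream of its gene in 142 members (38.1%), against 30.2% of weaker calls (odds ratio 1.42, 1.14 to 1.78, exact test, adjusted p = 0.00267). The difference from weaker calls was lost with a window of 250 bp (exact test, adjusted p = 0.147). The share was 13.5% in divergent peaks, where the divergent rule asks for a TSS of another gene facing away and so limits internal TSSs, and no test is read from it. Among genes with several TSSs the internal share was 59.4% in members and 59.3% in weaker calls. An internal TSS always belongs to a gene with several TSSs. The divergent rule thus bears on the several-TSS share too, and no test against divergent peaks is read from that share either. With only the most upstream TSS of each gene, it was 126 of 276 members and 77 of 196 divergent peaks. Median length of the nearest gene was 6938 bp for members, 2302 bp for divergent peaks and 3685 bp for weaker calls, given as a description. By location, 188 member summits lay outside coding genes, 123 in an intron and 39 in an exon of the nearest gene, and 18 in an intron of another coding gene. The 5 in an exon of another gene were at cu, CG17726, tst, chas and CG46385.

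A few genes had several members. Ptpmeg2, which encodes a protein tyrosine phosphatase, had 3 on the X, at 197, 204 and 176 bp upstream of 3 of its 6 TSSs, with signals of 310, 178 and 171. All 3 were among the strongest 1143 calls of every replicate. dnc, the cAMP phosphodiesterase gene known from learning, had 3 at 288, 374 and 327 bp upstream of 3 of its 9 TSSs, with signals of 224, 211 and 110. In both genes each peak had a TSS of its own. ph-p, Rtnl1, brwl and MFS10 had 2 members each, with summed signals of 1182, 579, 498 and 446.

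The X share of members was above that of divergent peaks, and less clearly above that of weaker calls. How divergent promoters are spread over the arms was not measured, so its part in the first contrast was not tested. Of the 370 members on the 5 major arms, 74 (20%) were on the X, against 14 of 223 divergent peaks (6.28%) and 696 of 4509 weaker calls (15.4%). The odds ratio was 3.73 against divergent peaks (2.02 to 7.34, Fisher's exact test, adjusted p = 4.43e-06), and 7.91 without replicate 2. Against weaker calls it was 1.37 (1.03 to 1.8, exact test, adjusted p = 0.0315), and that call was lost with a window of 250 bp (adjusted p = 0.251), with the 571 strongest IDR peaks (0.103) and with only the most upstream TSSs (0.124). Within replicates the X share of the strongest calls was 17.3%, 21.4% and 19.2% in replicates 1, 2 and 4, against 16.4%, 13.8% and 15.9% of their other calls at such promoters.

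The low GC content of the stretches shown for Ugalt and the other strong members was also seen in the average over all members. Over 150 bp at the summit, GC content averaged 33.5% ± 7.21 (SD over 373 members), against 32.2% ± 6.91 in divergent peaks and 38.6% ± 10.1 in weaker calls. For summits between 100 and 300 bp upstream it was 32.3% ± 6.70 in 219 members and 34.4% ± 8.87 in 1286 weaker calls, a smaller gap than over all positions. Within 100 bp of the TSS it was 39.2% ± 8.06 in 53 members and 41% ± 8.65 in 997 weaker calls. The whole interval between 100 and 300 bp upstream averaged 38.2% over all 14891 one-directional coding TSSs. That value is not centred on summits, so it is not the same measure. In replicates 1, 2 and 4 the strongest calls had 33.3%, 36.8% and 32.6%, against 38.8%, 44.2% and 38% in the other calls. These are spreads over regions, not over replicates, and carry no test.

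GAGA elements like those shown for larp and Fhos were found near 53.1% of member start sites. The window from 250 bp before to 50 bp after the TSS held GAGAG on either strand at 196 of 369 distinct member TSSs (95% Wilson interval 48.0 to 58.1%), against 37.4% of the TSSs of weaker calls and 36.0% of all one-directional coding TSSs. In 300 bp around the summit the shares were 44.0% of members, 21.1% of divergent peaks and 29.5% of weaker calls. Between 100 and 300 bp upstream they were 47.5% of members and 29.2% of weaker calls. The strongest calls of replicates 1, 2 and 4 held the letters in 43.7%, 41% and 40.9% of summit windows, against 32.4%, 31.2% and 28.3% of the other calls. The elements started most often between 100 and 50 bp before the TSS, at 24.4% of member TSSs and 11.7% of all one-directional TSSs. The 198 members with GAGAG in the TSS window had a median offset of -229.5 bp, and the 175 without it -156 bp. Summits were within 100 bp of the TSS in 11 of the 198 and in 42 of the 175. The 198 held 1 and the 175 held 14 of the 15 members at cytosolic ribosomal protein genes, and their part in this contrast was not tested. The median signals were 164 with GAGAG and 148 without. The match is one of letters and says nothing of the factor.

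**Figure D4:**
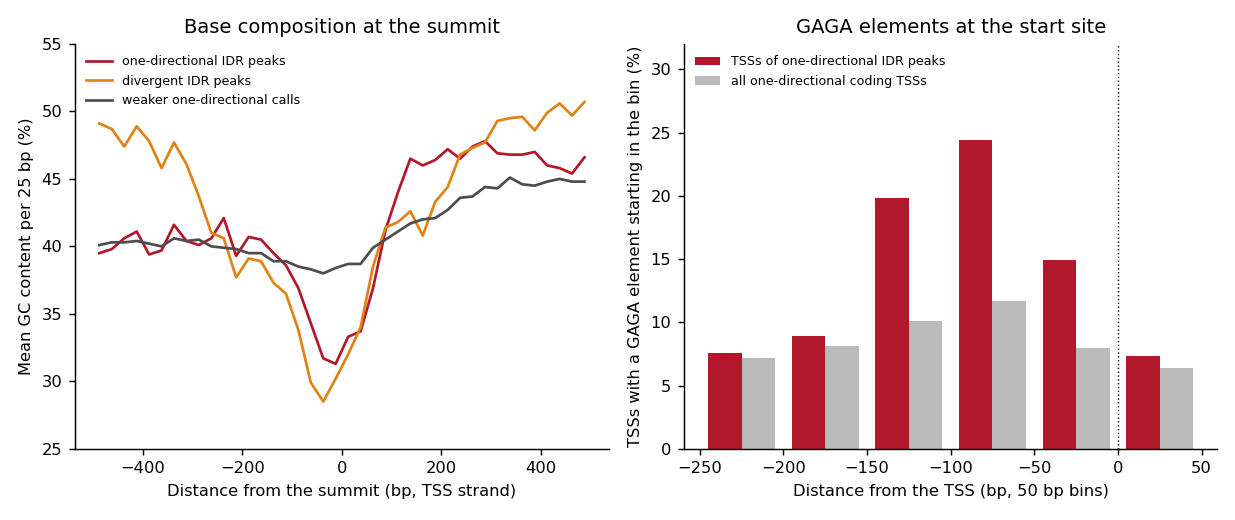
Left, mean GC content in 25 bp steps around the summit, along the strand of the nearest gene, for one-directional IDR peaks, divergent IDR peaks and weaker one-directional calls; members dip to 31.3% just before the summit. Right, percent of TSSs with a GAGA element starting in each 50 bp step, for members (369 TSSs) and all one-directional coding TSSs (14891); the highest bar for members is 24.4%.

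Shares of the other motifs, searched on both strands, were as follows. In TSS windows the site of DREF, TATCGATA, was in 5.69% for members and 5.25% for all one-directional TSSs, and the BEAF-32 core CGATA, which lies inside it, in 35.5% and 40.7%. GGTCACAC, the core of Ohler motif 1, was in 4.34% and 4.37%, the Pho core GCCAT in 38.2% and 41.1%, the E-box CACGTG in 4.34% and 3.70%, and the Zelda site CAGGTAG in 1.08% and 1.83%. At summits TATCGATA was in 4.83% of members, 12.6% of divergent peaks and 4.57% of weaker calls, and GGTCACAC in 2.14%, 6.73% and 3.13%. CACGTG was in 6.43% of member summits, 5.83% of divergent peaks and 3.32% of weaker calls. Between 100 and 300 bp upstream it was in 5.02% of members and 2.02% of weaker calls. At its usual place, starting 40 to 20 bp before the TSS, the TATA box TATAAA was at 2.44% of member TSSs and 7.77% of all one-directional TSSs. The initiator TCAGT within 5 bp of the TSS was at 16.5% and 12.8%. It was at 0 of 53 member TSSs with a summit within 100 bp, which has a Wilson upper bound of 6.76%, and at 61 of 317 (19.2%) of those with a farther summit.

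Cytosolic ribosomal protein genes, whose products form the cytosolic ribosome, had members at their start sites. Of 45 with a tested call at a one-directional promoter, 15 (33.3%) had a member, beside the 9.24% of all tested genes, and 17 others had a divergent IDR peak. How many had a tested call at a divergent promoter was not computed. The summits of the 15 members lay between 107 bp upstream and 9 bp downstream, with a median of -46 bp, against -194 bp for the 358 other members. Of the 15, 12 were within 100 bp of the TSS, against 41 of the 358 (11.5%). In replicates 1, 2 and 4, 14, 13 and 11 of the 15 calls were within 100 bp, against 12.9%, 13.6% and 11.6% of the calls at other members. These calls were chosen by overlap with the members, so their positions were tied to the pooled ones. A replicate was left out by asking for a strong call in both others, which leaves fewer peaks for every list. Without replicates 1, 2 and 4 in turn, 9 of 39, 3 of 34 and 6 of 37 tested ribosomal protein genes were left. Over all genes, 190, 220 and 200 of the 370 at members were left, and their shares of tested genes were not computed. The ribosomal protein share was above those of the other lists as reported, with a window of 250 bp (21 of 59) and without replicate 1. It was not the highest without replicate 2 (7 of 39 transcription factor genes), without replicate 4 (6 of 30 glycosylation, transport and lipid genes), with the 571 strongest IDR peaks (6 of 37, against 4 of 17 insulin and TOR genes) or with a window of 1000 bp (11 of 45, against 9 of 29 receptor tyrosine kinase and Ras genes). The contrast in position was noticed after the values were seen and carries no test. RpL23A was the strongest, with a signal of 230 and ranks of 521, 110 and 499. RpS28b had 199 and ranks of 523, 118 and 3259, and RpL24 had 181 and ranks of 711, 302 and 420, and both of their summits lay within 21 bp of the TSS. GC content at these 15 summits averaged 48.1% ± 5.73 (SD over regions), against 33.5% over all members.

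The start sites of 6 ribosomal protein genes are shown from 60 bases before the TSS to 20 bases from it on, in dm6 and 5′ to 3′ along the gene, because 12 of the 15 summits lay within 100 bp of the TSS. Capitals mark the TCT initiator, searched as CTTTC or CTTTT within 5 bp of the TSS, which was found at RpL37A, RpL8, RpL23A and RpS5a and not at RpL24 or RpS12. With RpS3A, 5 of the 15 start sites (33.3%) had it, against 3.81% of all one-directional coding TSSs.
RpL37A (chr2L:5070940-5071019, plus strand): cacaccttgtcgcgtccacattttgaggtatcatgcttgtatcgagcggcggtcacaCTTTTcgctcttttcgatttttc
RpL8 (chr3L:2587396-2587475, plus strand): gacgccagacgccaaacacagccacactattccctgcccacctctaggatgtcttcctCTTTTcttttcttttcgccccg
RpL23A (chr3L:1668635-1668714, minus strand): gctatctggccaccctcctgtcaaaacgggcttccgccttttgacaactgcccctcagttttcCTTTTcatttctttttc
RpS5a (chrX:17148245-17148324, minus strand): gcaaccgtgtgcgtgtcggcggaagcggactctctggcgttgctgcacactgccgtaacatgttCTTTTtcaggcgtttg
RpL24 (chr2L:13395112-13395191, minus strand): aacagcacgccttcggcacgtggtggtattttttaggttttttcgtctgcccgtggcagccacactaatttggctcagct
RpS12 (chr3L:13023292-13023371, plus strand): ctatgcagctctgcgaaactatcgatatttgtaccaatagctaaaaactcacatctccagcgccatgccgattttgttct

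Other list members near a start site belonged to several lists. Beside Ugalt and PNPase, given above, they included Pi3K21B (68 bp upstream), ttv (67 bp upstream), BEAF-32 (28 bp upstream) and Eip75B (45 bp downstream). eEF1gamma, a subunit of elongation factor 1, had a member 38 bp upstream with a signal of 220 and ranks of 527, 250 and 113. Nacalpha, a subunit of the nascent chain-associated complex, had one 15 bp upstream, and Thor, the 4E-BP translation repressor, had one 7 bp upstream with a signal of 116. The translation list as a whole had 3 of 17 tested genes, eIF6, eEF1gamma and eIF3c. Mitochondrial ribosomal protein genes had 1 of 10, mRpL41, with 9 more at divergent IDR peaks, and respiratory chain genes had 0 of 24, with a Wilson upper bound of 13.8%. The number of mitochondrial ribosomal protein genes with a tested call at a divergent promoter was not computed.

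Members were also found at developmental and signalling genes. The list shares that follow stand beside the 9.24% of all tested genes. Of 40 tested patterning and developmental transcription factor genes, 8 (20%) had a member, which were Sox14, Atf3, elav, bowl, fkh, CHES-1-like, Sox102F and vri. No gene of this list was counted at a divergent IDR peak. How many of its genes had a tested call at a divergent promoter was not computed. The summit at CHES-1-like lay 225 bp downstream of the TSS. elav, the neuronal RNA-binding protein gene kept in that list, had a signal of 194 at 222 bp upstream, with ranks of 159, 2336 and 206. fkh, a forkhead factor of the gut and salivary glands, had 171 at 245 bp upstream and ranks of 180, 275 and 8735, so its rank in replicate 4 was far from the other 2. Among insulin and TOR genes 5 of 18 (27.8%) had one, among them Pi3K21B, REPTOR and Thor. REPTOR, a transcription factor held back by TOR, had 195 at 219 bp upstream. Glycosylation, transport and lipid genes had 8 of 32 (25%), among them Ugalt, nrv1 and Lpin. Chaperone genes had 5 of 24 (20.8%), which were Hsp27, mrj, Hsp83, Nacalpha and Xbp1. Hsp27, a small heat shock protein gene, had 302 at 131 bp upstream and ranks of 74, 151 and 68. Without replicates 1, 2 and 4 in turn, the transcription factor list had 5 of 38, 7 of 39 and 6 of 39 tested genes. Insulin and TOR genes had 0 of 16, 2 of 17 and 2 of 16. Glycosylation, transport and lipid genes had 4 of 29, 4 of 29 and 6 of 30. Chaperone genes had 3 of 22, 2 of 21 and 3 of 22. These settings left 190, 220 and 200 of the 370 genes at members. The share of all tested genes in each was not computed.

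The remaining lists were nearer to the 9.24% of all tested genes or rested on few genes. Ubiquitin and proteasome genes had 4 of 22, among them rdx and ben, and chromatin regulators had 4 of 25, ph-p, dre4, psq and BEAF-32. Nuclear receptor genes had 2 of 14, Eip75B and Hnf4. Receptor tyrosine kinase and Ras genes had 4 of 29, gro, spi, Src64B and aos, where spi encodes an EGF receptor ligand and gro a corepressor. gro had a signal of 272 at 136 bp upstream of an internal TSS, with ranks of 389, 60 and 456, and spi had 227 at 240 bp upstream, with ranks of 267, 105 and 1363. Both summits were upstream in every replicate. Hedgehog, Wnt, Notch and related pathway genes had 4 of 36, numb, sgg, rdx and ttv. numb, which encodes a Notch inhibitor, had 193 at 149 bp upstream with ranks of 564, 567 and 199. Splicing and RNA processing genes had 2 of 22, PNPase and gw, and secretory genes 2 of 23, Rab5 and deltaCOP. Actin, microtubule and adhesion genes had 3 of 49, px, Msp300 and sls, of which px is known for vein patterning rather than for the cytoskeleton. Cell cycle genes had 2 of 33, cnn and Dp, the general factor and Mediator list had 1 of 23, Taf4, and the autophagy and cell death list had 1 of 20, hid. hid, an inducer of apoptosis, had a signal of 168 with ranks of 246, 989 and 421, and Taf4, a TFIID subunit, had 133 at 116 bp upstream with ranks of 1330, 415 and 6498.

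**Figure D5:**
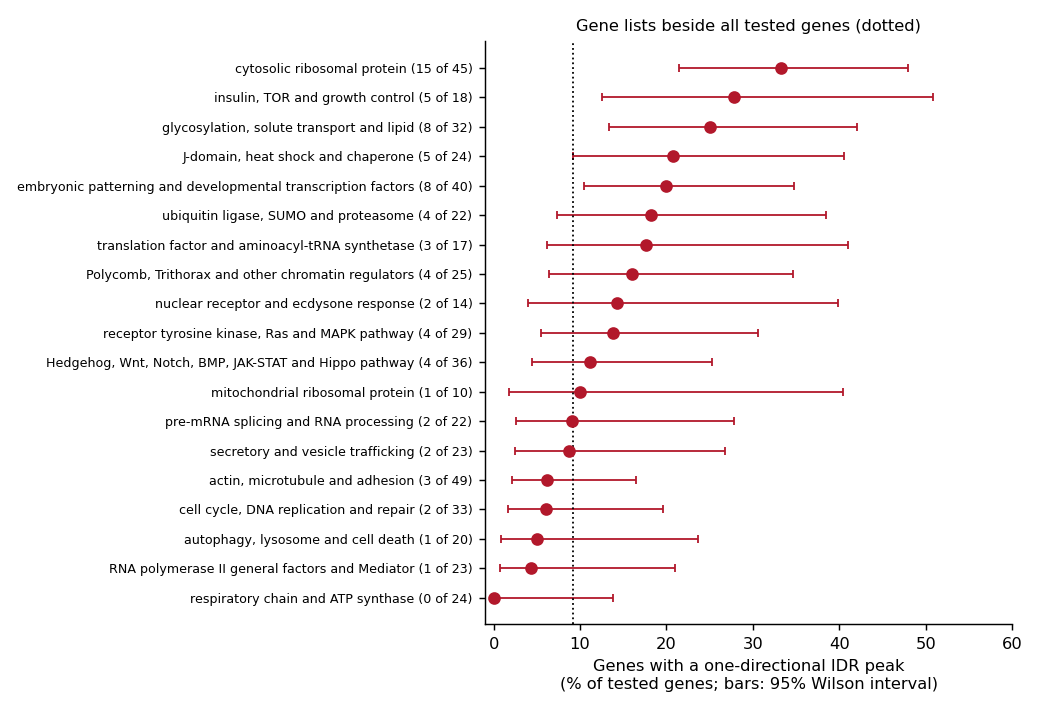
Percent of tested genes with a one-directional IDR peak in each of 19 gene lists, with 95% Wilson intervals that cover counting error only; the counts stand in brackets. The dotted line marks the 9.24% of all tested genes, and the cytosolic ribosomal protein list is at 33.3%, the top of this plot but not the highest without replicate 2 or 4, with the 571 strongest IDR peaks or with a window of 1000 bp.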

How the data were processed

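Peaks had been called by the authors in every replicate and in the pool of all 3, against controls, and the optimal list came from these by IDR, per the deposited descriptions. The deposited signal value of each call is the authors' own. Here it served only to rank calls within a list. The sources used here do not give the aligner, the peak caller or the IDR threshold. Read counts were not analysed here, so depth is unknown, and intervals and p-values over regions cover counting error only, with regions taken as independent, and not the spread between replicates.

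The dm6 pooled, IDR and replicate lists (30000 calls each but for the IDR list) were annotated with Ensembl release 115 and the RefSeq sequence of release 6 of the assembly, in Python 3.11.15 with pandas 2.3.3, scipy 1.17.1 and statsmodels 0.14.6. Coordinates are 1-based. The dm3 lists were not used. Weaker calls overlapped no IDR peak by 1 bp. Share comparisons used Fisher's exact test (two-sided) and conditional odds ratios, 95% exact intervals and Benjamini-Hochberg adjustment over 11 tests. The test was checked on simulated sets. Motifs, GC content and gene lists are descriptions. Named genes were the 25 strongest members, up to 3 per list, the genes with most members, the best and least reproducible ranks, the members at the 500 bp limit, and the weakest member; some of these are not reported here. The members and lists were chosen with earlier results of these data known. Alternatives changed the TSS window, the IDR list, the weaker calls, overlapping peaks, the divergent rule, the TSSs used, the support rule and the replicates.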

Additional observations from a re-analysis of the deposited data

How the results depend on the processing

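The upstream and several-TSS shares against weaker calls, and the X share and 3-replicate support against divergent peaks, stayed on their side of the threshold under every alternative that gave a value. With a TSS window of 250 bp, the odds ratios against weaker calls lost significance for the X share (1.22) and the internal TSS share (1.23), 8.71% of one-directional calls were IDR peaks, and the mean over replicates was 25.5% of strongest calls at one-directional promoters and 31.1% of those within 100 bp. With 1000 bp, the share within 100 bp lost significance against weaker calls (0.737), 5.87% of calls were IDR peaks, and the replicate means were 39.3% at one-directional promoters, 80.9% upstream and 11.8% within 100 bp. With the 571 strongest IDR peaks, there were 206 peaks at 207 genes, 4.31% of calls, and the X share against weaker calls was no longer past the threshold (1.37). The upstream odds ratio against divergent peaks was 2.33 there and passed the threshold. The definition favours upstream summits in divergent peaks, so no test is read from it. The 571 strongest calls of each replicate had, on average, 36.0% at one-directional promoters and 91.3% upstream. With only the stronger weaker calls as background, 11.9% of 3126 calls were IDR peaks. With only the most upstream TSS of each gene, the share within 100 bp (0.78) and the X share (1.34) against weaker calls lost significance, and no internal share exists. The several-TSS odds ratio against divergent peaks was 1.30 there and below the threshold. The divergent rule bears on that share, so no test is read from it. Leaving out a replicate required a summit inside a strong call of both others. By construction this left fewer peaks, between 190 and 217 at 190 to 220 genes, and it changed no call. The pooled summits and signals still held the replicate left out, and the weaker calls were not filtered. These settings thus filter IDR peaks more strictly, and do not show what the remaining replicates alone would give. No paired analysis was possible because there is 1 group.

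Over the 6 alternatives tried for gene lists, 56 of 114 list counts moved by more than 1.5 times. The cytosolic ribosomal protein count was 9, 3 and 6 without replicates 1, 2 and 4. Weaker calls differ from IDR peaks in signal by definition, and the part of signal in each difference was not tested. Calls near each other are not independent, and annotated start sites may lie away from those used in embryos.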
